A study of Mus musculus with 4 samples.

Results

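The cytosolic sulfotransferases are enzymes that move a sulfonate group from the donor PAPS onto small molecules such as steroids, bile acids, thyroid hormones, catecholamines and phenolic drugs. The genes described here were chosen by name from the arrays, as every probe of a biological gene whose name in the files is Sult1a1, Sult1b1, Sult1c1, Sult1c2, Sult1d1, Sult1e1, Sult2a2, Sult2b1, Sult5a1 or 2810007J24Rik. The last is the file's older name of Sult2a8 and is called Sult2a8 below. All 10 named genes were found, with 12 of the 41174 probes, and 9 of them were among the 18041 genes that could be tested.

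Sulfation makes a lipophilic molecule water soluble and usually ends its action at a receptor, and sulfatases can take the group off again. The SULT1 enzymes act mainly on phenols, including estrogens, thyroid hormones and catecholamines, and the SULT2 enzymes act on hydroxysteroids and bile acids. The liver is a main site of both, and in mouse liver several of these genes differ between the sexes and respond to growth hormone and to nuclear receptors.

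The samples were livers of male C57BL/6 mice fed a high-fat diet. Animals of the Plin2-ASO group were given an antisense oligonucleotide (ASO) against Plin2, the coat protein of liver lipid droplets, and the control animals a scrambled ASO, so every animal carried an oligonucleotide. Both were injected into the abdomen at 25 mg/kg, 2 times a week for 4 weeks, and the age of the animals was not given in the sources used here. Each of 4 Agilent arrays took 1 liver of each kind: mice 6, 7, 9 and 10 of the Plin2-ASO group (Cy3, green) on arrays 1 to 4, and control mice 1, 2, 4 and 5 (Cy5, red) on the same arrays. The labels count these as biological replicates. The dyes were never exchanged, so a dye bias of a single probe and the treatment cannot be told apart.

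Values are log2 ratios of the liver labelled Plin2-ASO over the control liver of the same array, so a positive value is a higher signal in the Plin2-ASO liver. If the labels or dyes were exchanged, every direction would be mirrored. Levels are log2 signals of each liver after normalization, and they are compared only within 1 probe. The targeted gene ran against the label: its ratio was above 0 on all 4 arrays, although it did not pass the test and the levels of the groups overlapped. Plin2 (named Adfp in the files) had levels of 13.96, 13.89, 14.32 and 13.71 in the livers labelled Plin2-ASO and of 13.71, 13.73, 13.49 and 13.34 in the control livers. Its ratios were 0.24, 0.15, 0.83 and 0.36, with a mean of 0.40 ± 0.15 (SE, n = 4) and an adjusted p of 0.156 by limma (95% interval 0.03 to 0.76). Where the oligonucleotide binds relative to this probe (NM_007408, mm7, chromosome 4, 86060498 to 86060557) is not given in the sources used here. The groups are therefore called by their labels throughout.

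Median spot signals were 244 to 499 in green and 256 to 637 in red, and no spot was saturated. Array 3 stood apart: the mean correlation of its ratios with the other arrays across genes was 0.329, against 0.514 to 0.655 for the others, and 7.61% of its spots were marked as outliers by the scanning software, against 1.5% to 3.83%. Its ratios also fell with probe GC content (r = -0.299), while those of array 4 rose with it (r = 0.252). With 4 arrays, precision is limited by their number.

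Among the sulfotransferases, Sult2a8, Sult1b1 and Sult5a1 were higher and Sult1e1 was lower in the livers labelled Plin2-ASO, while Sult1a1, Sult1c1, Sult1c2, Sult1d1 and Sult2a2 did not pass the test. Mean ratios among the members that passed ran between 3.66 for Sult2a8 and -1.81 for Sult1e1. That is 3 of 9 members higher and 1 of 9 lower at an adjusted p under 0.05 by limma. Over all 18041 genes, 9.76% passed in either direction, 3.69% as higher and 6.08% as lower. The median ratio of the 9 members was 0.23, against -0.03 over all genes tested, and by array it was -0.28, 0.19, 0.42 and 0.76. The value of 0.23 is that of Sult1c1, which rests on 3 arrays. RNA came from whole liver, so fewer cells of a type and less RNA per cell cannot be told apart.

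**Figure D1:**
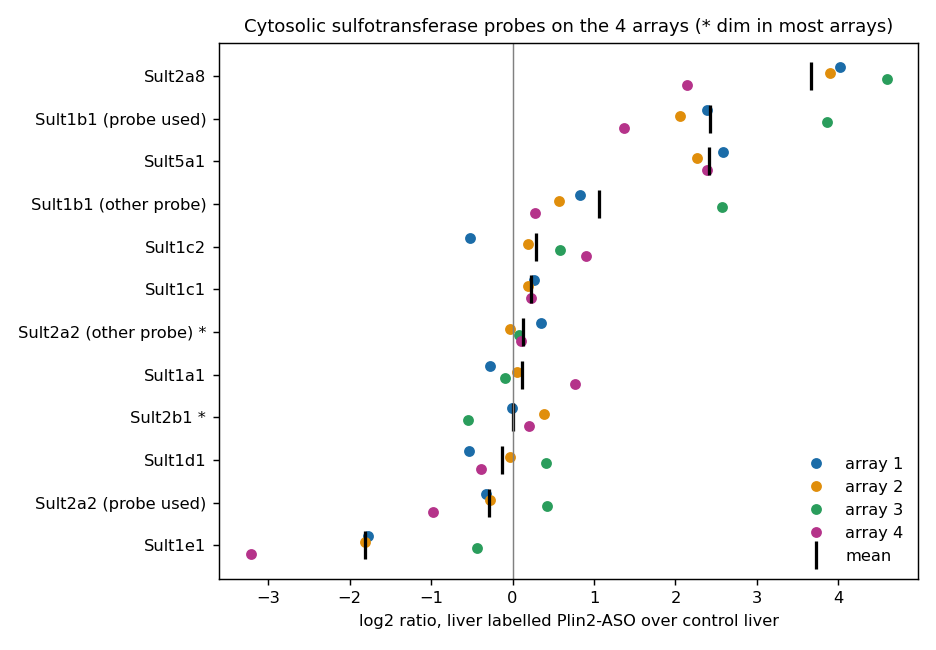
Log2 ratio of the liver labelled Plin2-ASO over the control liver (x axis) for each sulfotransferase probe (rows), with 1 point per array and a bar at the mean; an asterisk marks the probes that failed the background filter. All 4 points of Sult2a8 lie above 2 and all 4 of Sult1e1 below 0; array 3 gives the highest point of Sult2a8 and of both Sult1b1 probes.

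The promoters of the 4 genes that passed are shown because their transcripts moved furthest. The sequences are RefSeq's for build GRCm38.p6 and run 250 bases before to 50 after a gene's start, 5′ to 3′ on the gene's strand. Capitals mark matches, on either strand, to any of 4 motifs: AGGTCA, the half-site read by many nuclear receptors; TTCNNNGAA, the palindromic core read by STAT5 dimers; TGTTTAC, a forkhead core; and TATAAA, the TATA box. Of 32851 promoters of this length, 16.3%, 8.3%, 3.65% and 13.6% held these motifs, in that order.
Sult2a8, upstream start, chr7:14446538-14446837, minus strand: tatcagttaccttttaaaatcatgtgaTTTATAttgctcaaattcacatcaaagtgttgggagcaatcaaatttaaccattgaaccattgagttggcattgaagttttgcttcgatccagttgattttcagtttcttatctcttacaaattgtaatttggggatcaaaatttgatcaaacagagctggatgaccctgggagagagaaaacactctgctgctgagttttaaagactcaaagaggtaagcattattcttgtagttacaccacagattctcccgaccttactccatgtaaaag
Sult2a8, downstream start, chr7:14438502-14438801, minus strand: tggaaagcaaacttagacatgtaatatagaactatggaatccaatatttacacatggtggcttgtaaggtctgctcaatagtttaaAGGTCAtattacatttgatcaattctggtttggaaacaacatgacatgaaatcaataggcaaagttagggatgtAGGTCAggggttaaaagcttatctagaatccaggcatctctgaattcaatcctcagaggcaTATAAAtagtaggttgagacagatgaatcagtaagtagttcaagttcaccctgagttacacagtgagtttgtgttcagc
Sult1b1, upstream start, chr5:87538146-87538445, minus strand: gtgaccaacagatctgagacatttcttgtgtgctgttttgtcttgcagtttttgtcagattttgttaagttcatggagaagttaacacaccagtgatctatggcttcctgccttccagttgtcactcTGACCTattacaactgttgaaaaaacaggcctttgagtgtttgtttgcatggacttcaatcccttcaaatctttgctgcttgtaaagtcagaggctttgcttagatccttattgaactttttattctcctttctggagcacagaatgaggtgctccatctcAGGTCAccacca
Sult1b1, downstream start, chr5:87536173-87536472, minus strand: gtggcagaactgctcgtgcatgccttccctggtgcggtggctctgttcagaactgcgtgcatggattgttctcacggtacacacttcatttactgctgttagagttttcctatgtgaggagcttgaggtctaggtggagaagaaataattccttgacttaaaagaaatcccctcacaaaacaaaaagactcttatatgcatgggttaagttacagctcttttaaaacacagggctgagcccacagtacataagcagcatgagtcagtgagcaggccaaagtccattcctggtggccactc
Sult5a1, chr8:123158231-123158530, minus strand: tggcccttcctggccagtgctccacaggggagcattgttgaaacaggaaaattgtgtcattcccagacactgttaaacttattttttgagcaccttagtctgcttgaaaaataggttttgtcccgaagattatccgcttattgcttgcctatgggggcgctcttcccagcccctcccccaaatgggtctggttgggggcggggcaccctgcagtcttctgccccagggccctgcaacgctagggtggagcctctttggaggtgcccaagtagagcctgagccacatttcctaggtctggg
Sult1e1, chr5:87591562-87591861, minus strand: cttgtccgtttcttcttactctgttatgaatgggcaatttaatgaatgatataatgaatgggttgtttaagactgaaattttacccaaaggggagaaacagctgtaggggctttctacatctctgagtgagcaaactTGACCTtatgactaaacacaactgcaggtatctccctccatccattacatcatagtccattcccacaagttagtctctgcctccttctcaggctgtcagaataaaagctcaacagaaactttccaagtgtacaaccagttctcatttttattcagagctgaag

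In the downstream start of Sult2a8, AGGTCA began at positions -164 and -90 and TATAAA at position -29, counted from the start. Its upstream start held 1 TATAAA match, on the opposite strand. In the upstream start of Sult1b1, AGGTCA lay on the opposite strand at position -123 and on the gene's strand at position 39. Sult1e1 had AGGTCA on the opposite strand at position -113. The Sult5a1 window and the downstream start of Sult1b1 held none of the 4 motifs, and none of the 6 sequences shown held TTCNNNGAA or TGTTTAC. These matches are descriptions of letters, and motifs present in up to 16.3% of all promoters are common. Of the 10 members, 9 had a promoter in the table; the exception was Sult2a2.

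Sult2a8 is a mouse liver enzyme known to sulfonate bile acids, and it had the largest ratio of any member. Its probe (transcript NM_175250, mouse build mm7, chromosome 7, 13024119 to 13024178) had levels of 16.68, 16.20, 16.82 and 16.19 in the livers labelled Plin2-ASO and of 12.66, 12.30, 12.23 and 14.04 in the control livers. The levels of the livers labelled Plin2-ASO had an SD of 0.33 and lay above every control liver. Those of the control livers had an SD of 0.84, and the control liver of mouse 5 on array 4 was the highest of its group. The ratios on arrays 1 to 4 were 4.02, 3.90, 4.59 and 2.15. They averaged 3.66 ± 0.36 (SE, n = 4), a 12.7-fold difference (95% interval 7.04-fold to 22.8-fold) at an adjusted p of 0.00282 by limma. No single array decided the call: leaving out each in turn gave means of 3.36 to 4.17 and adjusted p of at most 0.0205.

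Sult2a2, a hydroxysteroid sulfotransferase of the same subfamily, was near background. The 2 probes named Sult2a2 are shown because the end of one resembles the start of the next; capitals mark these 17 bases, of which 16 match. The array annotation names the same transcript for both probes, but whether both lie on it was not tested.
A_52_P430755: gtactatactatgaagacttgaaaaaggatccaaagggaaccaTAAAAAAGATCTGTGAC
A_51_P281568: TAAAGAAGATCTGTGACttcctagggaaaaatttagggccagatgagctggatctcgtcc
The first, whose coordinate the files do not give, was well above background in 2 livers labelled Plin2-ASO and 3 control livers. Its levels were 8.10, 7.49, 7.47 and 7.25 in the livers labelled Plin2-ASO and 8.42, 7.77, 7.05 and 8.23 in the control livers, and the groups overlapped. Its ratios were -0.33, -0.28, 0.42 and -0.98, with a mean of -0.29 ± 0.22 (SE, n = 4; adjusted p = 0.442 by limma). Array 3 alone was positive, and without it the mean was -0.53 with an adjusted p of 0.0362. The second probe (mm7, chromosome 7, 12414651 to 12414710) failed the background filter and read 0.35, -0.03, 0.07 and 0.11. Sult2a genes share sequence, so which of them a Sult2a probe measured is uncertain.

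On every array Sult2a8 had a higher ratio than Sult2a2, by 4.34, 4.18, 4.17 and 3.13 on the log2 scale. The Sult2a2 probe lay near background, which limits this comparison. The mean difference was 3.96 (SD 0.56, n = 4), with an exact two-sided sign-flip p of 0.125. That is the smallest p that 4 arrays allow, so none of the 5 pairs of members compared in this way could pass 0.05; adjusted over the 5 pairs it was 0.156.

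Sult2b1, the cholesterol and pregnenolone sulfotransferase best known from skin, was at the limit of detection. Its probe (NM_017465, mm7, chromosome 7, 41910336 to 41911416) was well above background in 2 livers labelled Plin2-ASO and in 0 control livers, so it was not tested. The levels were 7.27, 7.74, 6.70 and 7.55 in the livers labelled Plin2-ASO and 7.27, 7.36, 7.24 and 7.35 in the control livers. Its ratios were -0.0045, 0.38, -0.54 and 0.21, in both directions, and no fold is given.

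The genes Sult1b1, Sult1d1 and Sult1e1 lie side by side on chromosome 5, and their ratios ran in different directions. Sult1b1 sulfonates thyroid hormones and small phenols. Its brighter probe (NM_019878, mm7, chromosome 5, 87451685 to 87451744) had levels of 12.03, 12.29, 13.10 and 11.38 in the livers labelled Plin2-ASO and of 9.64, 10.24, 9.25 and 10.02 in the control livers. All Plin2-ASO livers were above all control livers, and array 3 held both the highest liver of the Plin2-ASO group and the lowest control liver. The ratios of this probe were 2.39, 2.06, 3.86 and 1.37. They averaged 2.42 ± 0.36 (SE, n = 4), a 5.35-fold difference (95% interval 2.98-fold to 9.60-fold) at an adjusted p of 0.00972 by limma. Without array 1 the mean was 2.43 and the adjusted p 0.0549, which ended the call, and without array 3 they were 1.94 and 0.000398.

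A second Sult1b1 probe of the same transcript (mm7, chromosome 5, 87450300 to 87450359) had the same sign on all 4 arrays and smaller ratios. Its levels were 10.17, 10.19, 11.13 and 9.80 in the livers labelled Plin2-ASO and 9.34, 9.62, 8.56 and 9.53 in the control livers, again without overlap. Its ratios were 0.83, 0.57, 2.57 and 0.27, with a mean of 1.06 ± 0.35 (SE, n = 4). In the fit over all kept probes, where 9.99% of 25843 probes passed, its adjusted p was 0.0998 against 0.00810 for the brighter probe. The brighter probe exceeded it by 1.56, 1.49, 1.28 and 1.10 on the 4 arrays (mean 1.36, SD 0.21, exact two-sided sign-flip p = 0.125, the smallest 4 arrays allow). Averaging both probes gave Sult1b1 a mean of 1.74 and an adjusted p of 0.0290.

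Sult1e1, the estrogen sulfotransferase, was the only member that passed as lower. Its probe (NM_023135, mm7, chromosome 5, 87512926 to 87512985) had levels of 7.59, 8.68, 9.08 and 7.58 in the livers labelled Plin2-ASO and of 9.36, 10.49, 9.52 and 10.80 in the control livers. Every Plin2-ASO liver was below every control liver, with the narrowest gap on array 3. The ratios were -1.78, -1.81, -0.44 and -3.21. Their mean was -1.81 ± 0.38 (SE, n = 4), 3.51-fold lower, at an adjusted p of 0.0308 by limma, which was the weakest of the 4 calls. The call ended when array 1 (adjusted p = 0.135), array 2 (0.122) or array 4 (0.0526) was left out, and with no background filter (0.0532). Without array 3 the mean was -2.27 and the adjusted p 0.000771. The probe was well above background in 4 livers of each group. However, the levels of 7.59 and 7.58 in the livers labelled Plin2-ASO on arrays 1 and 4 were close to background, which limits the fold. The mean was -1.76 without background correction, -1.94 with a normexp offset of 16 and -2.10 with the software's ratios.

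Sult1d1, which sulfonates dopamine and other catecholamines in mouse, had levels of 12.14, 12.95, 12.55 and 12.12 in the livers labelled Plin2-ASO and of 12.68, 12.98, 12.13 and 12.50 in the control livers. The groups overlapped. Its ratios (NM_016771, mm7, chromosome 5, 87492397 to 87492456) were -0.54, -0.03, 0.42 and -0.38, with a mean of -0.13 ± 0.18 (SE, n = 4; adjusted p = 0.686 by limma) and a 95% interval of -0.56 to 0.29.

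Within the trio the ratio of Sult1b1 exceeded that of Sult1e1 by 4.17, 3.87, 4.29 and 4.58 on arrays 1 to 4. The mean difference was 4.23 (SD 0.29, n = 4), although each gene alone varied widely between arrays: the SD of the ratios was 1.05 for Sult1b1 and 1.13 for Sult1e1. Sult1b1 exceeded Sult1d1 by 2.55 (SD 0.77) and Sult1d1 exceeded Sult1e1 by 1.68 (SD 0.86), each in the same direction on 4 of 4 arrays. Each of these differences had an exact two-sided sign-flip p of 0.125, and 0.156 after adjustment over the 5 pairs.

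Sult5a1 encodes a family member whose substrate is not well established, and it was the least variable of the members that passed. Its probe (NM_020564, mm7, chromosome 8, 121784746 to 121784805) was measured on 3 arrays, since the red spot on array 3 was marked as an outlier. The levels on arrays 1, 2 and 4 were 11.46, 11.01 and 11.72 in the livers labelled Plin2-ASO and 8.88, 8.74 and 9.34 in the control livers, without overlap. The ratios were 2.59, 2.26 and 2.38. They averaged 2.41 ± 0.16 (SE, n = 3), a 5.32-fold difference (95% interval 4.07-fold to 6.95-fold) at an adjusted p of 0.00147 by limma. The outlier spot itself read 2.05, and with it kept the mean was 2.32 at an adjusted p of 0.000968. Without array 1 the adjusted p was 0.0197, the highest of the leave-out values. The fits without array 1, 2 or 4 rested on 2 arrays for this gene, and leaving out array 3 removed no value.

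**Figure D2:**
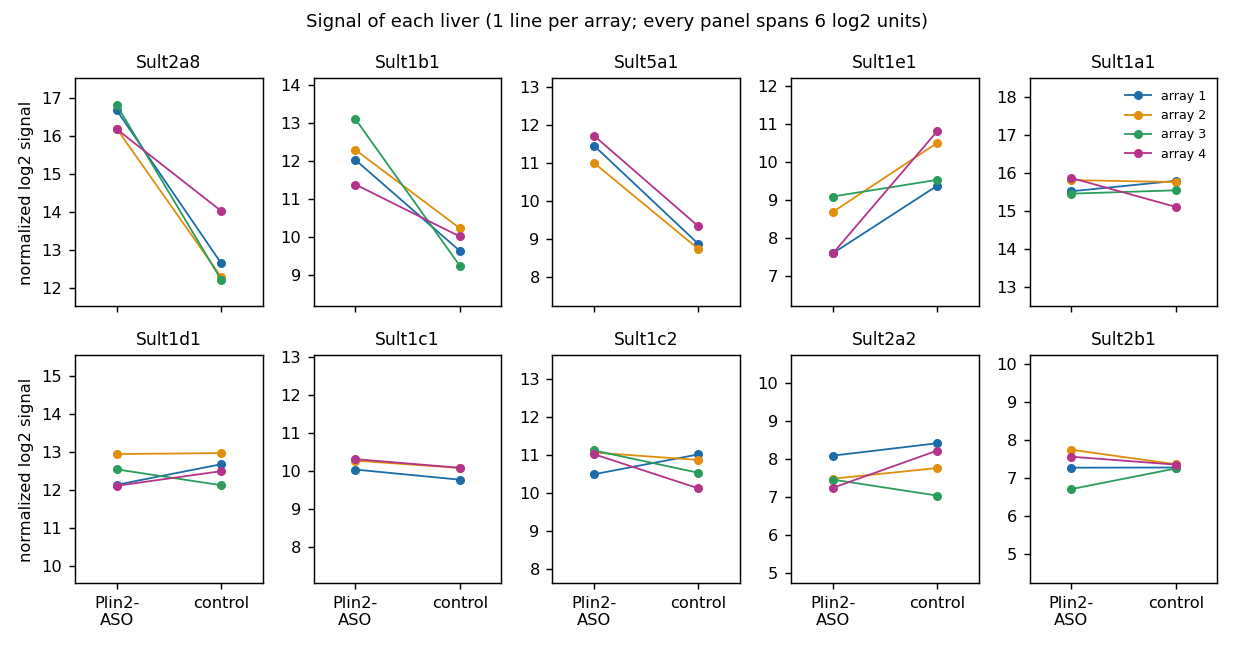
Normalized log2 signal (y axis) of each liver labelled Plin2-ASO (left) and each control liver (right) for the probe used for each of the 10 members, with 1 line per array and every panel spanning the same number of log2 units. The lines of Sult2a8, Sult1b1 and Sult5a1 all slope down towards the control side and those of Sult1e1 all slope up. Sult1a1, Sult1d1, Sult1c2, Sult2a2 and Sult2b1 have lines of both slopes.

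Sult1a1, the main phenol sulfotransferase of liver, was bright in every liver and did not separate the groups. Its levels were 15.52, 15.81, 15.46 and 15.87 in the livers labelled Plin2-ASO and 15.80, 15.76, 15.55 and 15.11 in the control livers. The ratios (NM_133670, mm7, chromosome 7, 122769649 to 122769708) were -0.28, 0.05, -0.09 and 0.76. The mean was 0.11 ± 0.19 (SE, n = 4; adjusted p = 0.748 by limma), and the 95% interval of -0.33 to 0.56 leaves out changes as large as those of the members that passed. Without array 4 the mean was -0.10.

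Sult1c1 and Sult1c2 lie near each other on chromosome 17 (mm7, 52121255 to 52121314 and 51987327 to 51987386), and neither passed. Sult1c1 had levels of 10.03, 10.27 and 10.30 in the livers labelled Plin2-ASO and 9.76, 10.07 and 10.08 in the control livers of arrays 1, 2 and 4. Its ratios there were 0.27, 0.19 and 0.23, and the mean was 0.23 ± 0.15 (SE, n = 3; adjusted p = 0.382 by limma). The outlier spot of array 3, left out of this value, read -0.86, and keeping it turned the mean to -0.043. Sult1c2 had levels of 10.48, 11.06, 11.11 and 11.01 in the livers labelled Plin2-ASO and of 11.01, 10.86, 10.52 and 10.11 in the control livers, and the groups overlapped. Its ratios were -0.52, 0.19, 0.59 and 0.90, with a mean of 0.29 ± 0.23 (SE, n = 4; adjusted p = 0.467 by limma). The mean difference between both genes was 0.04 (SD 0.73, n = 3, exact two-sided sign-flip p = 1).

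Of the 9 members tested, 7 were measured on all 4 arrays. Of these 7, Sult2a8, Sult1b1 and Sult1e1 had 1 sign on all 4 arrays, which 34.3% of the 16129 genes measured on all arrays had. For Sult2a8 and Sult1b1 every liver labelled Plin2-ASO was above every control liver, as for 5.9% of these genes, and for Sult1e1 every one was below, as for 10.7%.

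**Figure D3:**
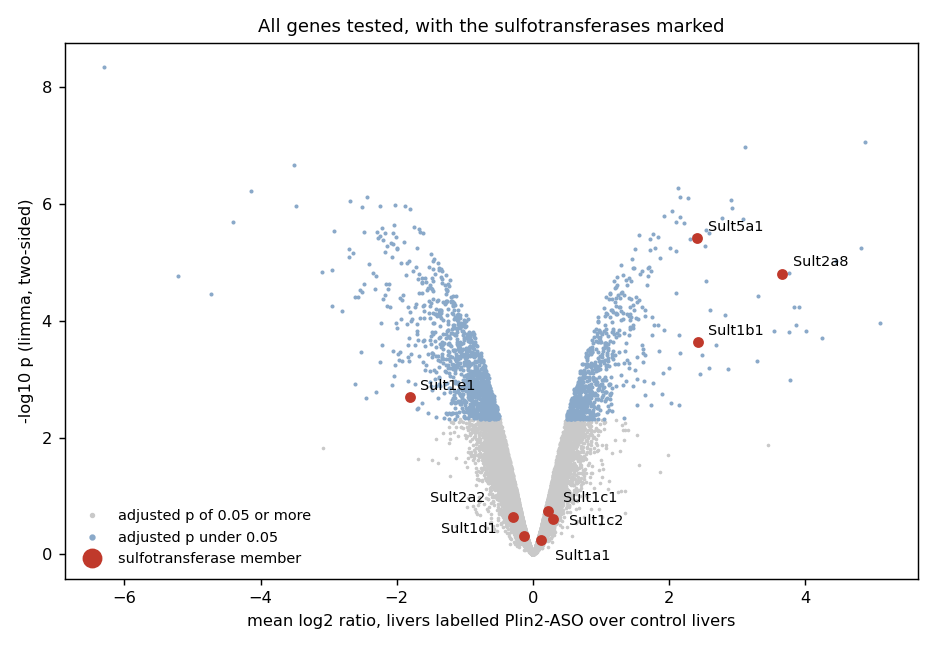
Mean log2 ratio (x axis) and −log10 of the unadjusted two-sided limma p (y axis) of all genes tested, with the 9 tested sulfotransferases in red and other genes at an adjusted p under 0.05 in blue. Sult2a8, Sult5a1 and Sult1b1 lie on the right arm and Sult1e1 on the left, while the other 5 lie at the foot of the plot.

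Which members passed depended on the arrays included. Sult5a1 and Sult1c1 lacked array 3, so without array 1, 2 or 4 their fits rested on 2 arrays. With array 1 left out, 2 members passed as higher (Sult2a8 and Sult5a1) and 0 as lower, against 0.804% and 1.15% of all genes. With array 2 left out, 3 passed as higher and 0 as lower, against 0.909% and 1.24%. With array 4 left out, 3 passed as higher and 0 as lower, against 2.11% and 3.42%. With array 3 left out, 3 passed as higher and 2 as lower (Sult1e1 and Sult2a2), against 12.4% and 20.3%.

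**Figure D4:**
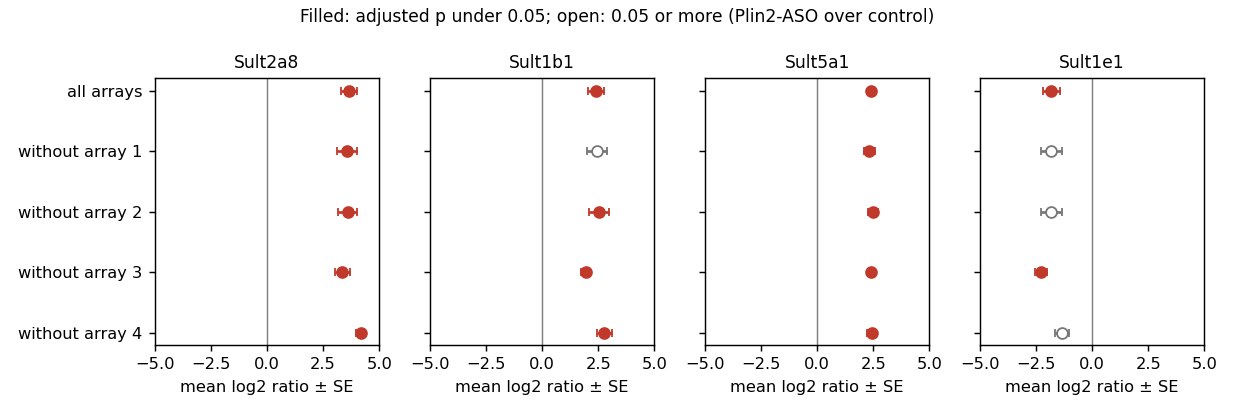
Mean log2 ratio with its SE (x axis) of the 4 members that passed, with all arrays and without each array in turn (rows); filled points have an adjusted p under 0.05. Sult2a8 and Sult5a1 are filled in every row, Sult1b1 is open without array 1, and Sult1e1 is open without array 1, 2 or 4. The Sult5a1 rows without array 1, 2 or 4 rest on 2 arrays.

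Sulfation needs PAPS, which is made from sulfate and ATP and exported to the Golgi, and its by-product PAP has to be removed. Of 30 genes of sulfate supply, cysteine sulfur metabolism, PAPS synthesis and transport, PAP removal and desulfation, 27 were tested. Of these, 2 rose and 0 passed as lower, against 3.69% and 6.08% of all genes. The median ratio of the 27 was -0.14, against -0.03 over all genes tested. Papss2, the PAPS synthase that dominates in liver, rose 2.08-fold, with ratios of 1.04, 1.31, 0.39 and 1.48 (mean 1.06 ± 0.20, SE, n = 4; adjusted p = 0.0202 by limma). Csad turns cysteine sulfinate into the taurine precursor hypotaurine, so it does not itself supply sulfate. It rose 1.64-fold, with ratios of 0.64, 0.59, 0.88 and 0.74 (mean 0.71 ± 0.13, SE, n = 4; adjusted p = 0.0175 by limma). Without array 1, 2 or 4 the number that passed as higher was 0, where 0.804%, 0.909% and 2.11% of all genes did. Without array 3 it was 4, with 5 passing as lower, where 12.4% and 20.3% of all genes passed. The other PAPS synthase, Papss1, the sulfate transporter Slc13a1 and the sulfatase modifier Sumf1 were not tested because their probes were too dim or measured on too few arrays.

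The Golgi sulfotransferases use the same donor on proteins and sugars. Of 24 such genes 19 were tested, of which 1 rose and 1 fell, against 3.69% and 6.08% of all genes, with a median ratio of -0.0024. Gal3st2, which sulfates galactose on glycans, was 1.82-fold higher (ratios 1.00, 0.08, 1.24 and 1.14, adjusted p = 0.0453 by limma). Chst14, the dermatan 4-O-sulfotransferase, was 1.90-fold lower (ratios -1.16, -1.38, -0.14 and -1.02, adjusted p = 0.0397). The Gal3st2 ratio was close to 0 on array 2 and the Chst14 ratio on array 3. The number that passed as higher was 0 without array 1 or 4 and 2 without array 3, and as lower it was 0 without array 1 or 2 and 3 without array 3; the shares of all genes are those given above for each array left out.

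Among 26 regulators of hepatic sulfotransferases (nuclear receptors, growth hormone signalling and liver transcription factors), 25 were tested, 2 rose and 0 passed as lower, against 3.69% and 6.08% of all genes, with a median ratio of 0.14. Ghr, the growth hormone receptor, rose 2.09-fold, with ratios of 1.48, 0.99, 1.24 and 0.54 (mean 1.06 ± 0.18, SE, n = 4; adjusted p = 0.0140 by limma). Nr1i3, the xenobiotic receptor CAR, had a mean ratio of about the same size (1.05 ± 0.28, SE, n = 4, 2.07-fold) but varied more, with ratios of 0.67, 1.46, 0.15 and 1.92, and did not pass (adjusted p = 0.0616). The bile acid receptor Nr1h4 and the xenobiotic receptor Nr1i2 had mean ratios of 0.089 and 0.079 (n = 3 each) and did not pass. The number that passed as higher was 0 without array 1 or 2 and 1 without array 4. Of all genes 0.804%, 0.909% and 2.11% passed as higher without array 1, 2 and 4. Without array 3 the number was 9, with 2 passing as lower, where 12.4% and 20.3% of all genes passed.

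**Figure D5:**
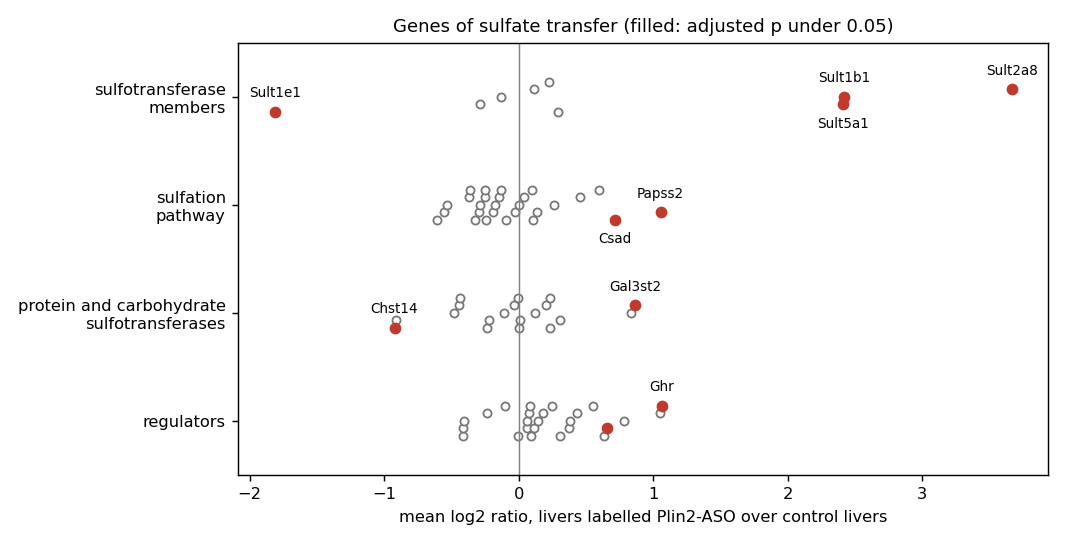
Mean log2 ratio (x axis) of every tested gene of the sulfotransferase members and of the 3 lists around them (rows); filled points have an adjusted p under 0.05, and all but 1 of them are named. The 4 filled members lie outside the range of all 3 lists, whose genes stay between -0.92 and 1.06.

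Other genes had ratios close to those of the members that passed, judged by the root mean square (RMS) difference of the log2 ratios over the arrays, among 12605 named genes measured on all 4. Nearest to Sult2a8 were the fatty acid elongase Elovl3 (RMS 0.371, mean ratio 3.76), Cyp2f2 (0.397 and 3.30) and the major urinary protein gene Mup1 (0.666 and 3.87). Like Sult2a8, all 3 had their lowest ratio on array 4. Nearest to Sult1b1 were Immp2l (RMS 0.287, mean ratio 2.60), the steroid dehydrogenase Hsd3b4 (0.458 and 2.59) and Susd4 (0.481 and 2.54), each with its highest ratio on array 3. Nearest to Sult1e1 were Dcaf12l1 (RMS 0.452, mean ratio -1.68), the cell cycle kinase Cdk1 (0.523 and -1.95) and Cenpw (0.552 and -1.30). For Sult5a1, judged on its 3 arrays, they were Hk1 (RMS 0.202), Vsig4 (0.229) and Dnajc1 (0.276). Hk1 read -2.57 on array 3, which Sult5a1 lacked. Genes chosen by these ratios tend to share a member's pattern across arrays, so the shared highs and lows are no separate observation.

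The files also hold 3 sulfotransferases outside the named set, none of which passed. Sult3a1, an amine sulfotransferase, was well above background in 2 livers labelled Plin2-ASO and 0 control livers. The levels of the groups overlapped, and no fold is given. Its ratios were 0.57, 0.27, 0.55 and 0.26, and when dim probes were included its adjusted p was 0.0830. Sult4a1, known from brain, had a mean ratio of -0.04 ± 0.20 (SE, n = 3; adjusted p = 0.932 by limma). Sult6b1 had a mean ratio of 0.23 ± 0.14 (SE, n = 4; adjusted p = 0.319).

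Markers of other liver cells also differed between the groups, and their part in the values above was not tested. Over all genes tested, 3.69% passed as higher and 6.08% as lower, with a median ratio of -0.03. Stellate cell markers had a median ratio of -1.20 with 5 of 8 lower, and endothelial markers of -0.65 with 5 of 9 lower. Of 10 macrophage markers 4 passed as higher and 5 as lower (median -0.87). The log2 of the summed signal was 15.42 to 15.89 in the livers labelled Plin2-ASO and 16.80 to 17.50 in the control livers for the stellate list, and for the endothelial list 13.72 to 14.18 in the livers labelled Plin2-ASO and 14.47 to 15.00 in the control livers. For the macrophage list the sum held 8 markers, without Clec4f and Marco (both higher, each measured on 3 arrays). It was 14.56 to 15.18 in the livers labelled Plin2-ASO and 16.16 to 17.12 in the control livers. Vsig4, named above beside Sult5a1, is among these 8 but was higher, with a mean ratio of 2.52, as was Cd163 (3.08). The 5 markers that passed as lower are also among them. Cholangiocyte markers had a median of -0.35 with 2 of 4 lower. Without Krt7 (mean ratio 0.32), which was measured on 3 arrays, they summed to 12.57 to 13.37 in the livers labelled Plin2-ASO and 14.41 to 15.36 in the control livers. Of 5 T and B cell markers 1 passed as lower, with sums of 11.26 to 12.25 in the livers labelled Plin2-ASO and 11.89 to 12.12 in the control livers.

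The livers were checked with 10 hepatocyte markers, of which 9 had a probe and were well above background in both groups. Their median ratio was -0.20, with Alb and Apob lower among 9 tested, and the summed signal of 8 of them, without Ttr, which was measured on 3 arrays, was 18.53 to 19.01 in the livers labelled Plin2-ASO and 19.31 to 19.44 in the control livers. Of all genes, 6.08% passed as lower and 3.69% as higher. Adipocyte markers had a median of 0.14 with 1 of 6 higher (Cfd), but of 1.82 on array 3. They summed to 12.83 to 16.08 in the livers labelled Plin2-ASO and 14.04 to 14.98 in the control livers. Retn was never above background in a control liver. Of the pancreas and intestine markers 3 were tested and 0 passed, with sums of 14.91 to 15.37 in the livers labelled Plin2-ASO and 14.78 to 15.35 in the control livers; Prss2 and Amy2a5 were never above background in a control liver.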

How the data were processed

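Per the labels, liver RNA was amplified, coupled to Cy5 (control) or Cy3 (Plin2-ASO) and hybridised in pairs to 4 arrays. Per the file headers, Feature Extraction 9.5.1.1 gave the spot intensities, and the deposited mean signal and median local background of each spot were the starting values. The log10 ratio in the deposited scanner files is red over green after the software's own background and dye correction. The authors' deposited series table holds the same ratios as log2 values, differing by 0 after rounding; both served only as alternatives, with the sign turned.

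The intensities were background-corrected by normexp with an offset of 50, then loess-normalized within arrays, control spots at weight 0, in limma 3.58.1 (R 4.3.3, statmod 1.5.0, data.table version 1.17.8). Outlier spots were set to missing. A probe was kept if well above background on at least 3 of 4 arrays in 1 channel (27160 of 41174 probes). A gene is its brightest kept probe measured on at least 3 arrays, which left 18041 of 18638 genes. Fits that left out an array needed at least 2 arrays per gene. Each mean ratio was tested against 0 with lmFit and eBayes (two-sided, 7.21 total degrees of freedom for 4 arrays), with Benjamini-Hochberg adjustment over all genes at 0.05. SEs are moderated and intervals are at 95%. Levels per liver are channel signals after loess and Aquantile scaling. No fold is given for a gene never well above background in 1 group. Members were compared pairwise with exact sign-flip tests. The fit was tested on simulated data.

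Names came from the RefSeq table of GRCm38.p6 (22951 probes by accession, 131 by another accession, 6582 by symbol, 3073 by older symbol, 8437 unmatched); probe positions are those of the files, build mm7, and no exon annotation of that build was used. The members, lists and tests were chosen with earlier results of these data known, so their directions are no independent evidence. Named genes are every member, list genes past the threshold (at most 8 a list), Plin2, the 3 nearest genes of each member that passed, the remaining Sult genes, and marker genes; Nr1h4, Nr1i2 and Nr1i3 were named after their values were seen. A gene that this rule names is not reported here. Alternatives concerned background correction, normalization, filters, the probe of a gene, outlier spots, the model, GC content, the deposited ratios and leaving out each array.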

Additional observations from a re-analysis of the deposited data

Results flagged for a closer look

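Of 42 sets of 4 values examined (ratios and levels per group of each probe), 2 held a value far from the other 3, and chance gives about 1 in 20. The Sult1c2 level in the liver labelled Plin2-ASO on array 1 was 10.48, against 11.06, 11.11 and 11.01 on arrays 2 to 4; its gap was 0.841 of the group's range, above the 95% limit of Dixon's test. The Sult3a1 level on array 1 was 7.07 in the Plin2-ASO liver, against 7.78, 7.88 and 7.79 on arrays 2 to 4, a gap of 0.885 of the range, in a gene near background.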

How the results depend on the processing

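Sult2a8 (3.59 to 3.74 on the log2 scale over 14 alternatives beside leaving out arrays), Sult5a1 (2.32 to 2.76 over 13) and Sult1b1 (1.74 to 2.58 over 14) kept their direction and call in each; Sult1e1 (-2.10 to -1.76) lost its call with no background filter. Sult5a1 and Sult1c1 lack a value for separate channels, which needed all 4 arrays. Members lower counted 0 with no background filter and 2 with array quality weights, a setting that gave array 3 a weight of 0.224 and raised all genes to 2794 higher and 4213 lower. With these weights the sulfation pathway had 4 higher and 8 lower, the Golgi sulfotransferases 2 and 5, and the regulators 9 and 2. Sulfation pathway genes lower counted 1 with scale normalization, no background filter or the mean of probes, and 2 after correction for GC content. Golgi sulfotransferases higher counted 2 with median centring, scale normalization or separate channels and 0 with no background filter, and lower 0 with no filter or a strict one. Regulators higher counted 1 with the software's ratios, the series table, outlier spots kept, no filter, a strict filter, or trend and robust eBayes, and 5 with separate channels. All genes counted 665 higher and 1096 lower in the main fit. Apart from array weights, the alternatives gave 535 (series table) to 811 (scale normalization) higher. They gave 831 (series table) to 1388 (separate channels) lower. Leaving out each array gave ranges of 2 to 3 members higher and 0 to 2 lower; 0 to 4 and 0 to 5 for the sulfation pathway; 0 to 2 and 0 to 3 for the Golgi sulfotransferases; 0 to 9 and 0 to 2 for the regulators; 145 to 2245 and 207 to 3666 for all genes; and 0.25 to 0.48 for the Plin2 ratio.

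Signs turned only for genes that did not pass. Sult1a1 was -0.020 with median centring, -0.013 with array weights and -0.10 to 0.24 when each array was left out. Sult1c1 was -0.043 with outlier spots kept and -0.0049 in the series table, and Sult1c2 was -0.039 with array weights. Leaving out each array gave Sult1d1 values of -0.32 to 0.0016 (without array 1). Sult4a1 was 0.0030 with median centring, 0.20 with outlier spots kept, 0.12 in the series table, 0.079 with array weights and -0.22 to 0.19 when each array was left out. Except where an outlier spot or an array was added or removed, the cause was not tested. Sult2a2, Sult2b1 and Sult3a1 lie near background, as do the lowest Sult1e1 levels, which limits their values. No replicate block was fitted because each ratio already pairs the livers of 1 array.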
